A study of Mus musculus with 35 samples.

Results

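NuRD (nucleosome remodelling and deacetylase) genes were followed through 35 RNA-seq libraries of mouse fibroblasts on the way to induced pluripotency. The 10 genes are Chd3, Chd4, Hdac1, Hdac2, Mta1, Mta2, Mta3, Mbd2, Mbd3 and Gatad2a. They were chosen as subunits of NuRD, a partner complex of the delivered factor Sall4, and were found by Ensembl identifier among the 54752 genes of the tables. The cells were embryonic fibroblasts of mid-gestation embryos at passage 2, from males carrying an Oct4-GFP transgene (CBA/CaJ × C57BL/6J) and females of a 129 SvJaeJ strain. They were infected with retroviruses for 48 hours and then kept in iCD3 medium with a Rock inhibitor for up to 7 days. In the JEGS group all 4 factors, Jdp2, Glis1, Esrrb and Sall4, were delivered, and 3 libraries cover days 2, 4 and 6. In each of the other 4 groups 1 factor was left out, and 8 libraries cover days 0 to 7 (32 libraries). No uninfected sample was analysed here, and every group shares the Oct4-GFP transgene and the fibroblast origin. Each group received at least 3 of the 4 factors, but no factor was delivered in every group.

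NuRD joins a pair of enzymes in 1 assembly. Its CHD subunit uses ATP to slide nucleosomes, and its histone deacetylases HDAC1 and HDAC2 remove acetyl groups from histone tails. MTA proteins hold the deacetylases, MBD2 or MBD3 links that module to the rest, and GATAD2 proteins bridge the MBD protein to the CHD protein. Several of these positions can be filled by 1 of several paralogues. Sall4 and its relatives carry a short N-terminal motif that binds NuRD, and MBD3 and GATAD2A have long been studied for their effect on reprogramming.

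No arm has a second library of the same day, so each arm was a series of single libraries over the days. The p-values measure how far single libraries depart from the fitted arm and day terms. In that departure technical spread and differences in time course cannot be told apart. It is not a spread between replicate infections, so the missing factor and a difference between cultures cannot be told apart either. Library totals ran from 1266379 to 3608456 estimated counts with a median of 1973102. They were lowest in JEGS (1266379 to 1682386) and without Esrrb (1377656 to 1651712), and highest without Sall4 (1939226 to 3608456). The labels name a pair of library kits without saying which library had which, so kit and arm cannot be told apart. The level of each delivered factor followed the sample names: Sall4, for example, was at 0.33 to 7.37 TPM (length-scaled transcript abundance) where it was left out and at 213 to 1890 TPM in the other libraries. All 10 fibroblast markers (Col1a1, Vim and others) were detected in every arm, and their summed TPM had a median of 1280 in JEGS (1180 to 1350), 993 without Esrrb (813 to 5050), 1120 without Glis1 (831 to 6330), 2330 without Jdp2 (1920 to 7310) and 1700 without Sall4 (1490 to 9140). The 8 pluripotency markers summed to a median of 310 TPM in JEGS (137 to 1690), 71.0 without Esrrb (5.69 to 90.8), 6.88 without Glis1 (1.26 to 31.7), 73.3 without Jdp2 (7.08 to 426) and 26.6 without Sall4 (3.72 to 37.6), with Dppa5a at 0 in every library without Glis1 and Utf1 in every library without Sall4. The 6 epithelial markers had group medians of 96.5 (without Sall4) to 554 TPM (without Jdp2), the 5 of primitive endoderm 17.5 to 42.1, the 5 endothelial ones 6.32 to 38.9, the 6 of macrophages 7.98 to 31.8 and the 4 of red blood cells 7.44 to 53.3. The part of cell composition in the values below was not tested. In these bulk samples fewer cells of a type and less RNA per cell cannot be told apart.

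RefSeq promoter windows on GRCm38.p6 were matched for 6 of the 10 genes. They are shown for Mta1, which had the largest rise without Esrrb, and for Mta2 and Hdac2, whose Pearson's r over the 32 leave-out libraries was 0.718. That of Mta1 and Mta2 was 0.765. Each line gives the 250 bases before the annotated start, 5′ to 3′ on the gene's strand, which is the plus strand in all 3. Capitals mark matches to the GC box GGGCGG on either strand.
Mta1, chr12:113098028-113098277: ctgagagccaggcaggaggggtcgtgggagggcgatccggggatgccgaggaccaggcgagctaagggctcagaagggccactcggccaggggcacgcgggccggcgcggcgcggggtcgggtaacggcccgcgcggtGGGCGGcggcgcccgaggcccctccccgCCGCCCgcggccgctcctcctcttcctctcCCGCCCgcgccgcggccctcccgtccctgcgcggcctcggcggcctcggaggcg
Mta2, chr19:8941670-8941919: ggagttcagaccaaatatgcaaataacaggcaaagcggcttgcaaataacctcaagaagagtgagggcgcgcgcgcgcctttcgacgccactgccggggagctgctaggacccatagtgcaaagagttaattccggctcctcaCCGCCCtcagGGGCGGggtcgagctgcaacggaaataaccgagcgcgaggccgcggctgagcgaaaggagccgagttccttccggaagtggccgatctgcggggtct
Hdac2, chr10:36974294-36974543: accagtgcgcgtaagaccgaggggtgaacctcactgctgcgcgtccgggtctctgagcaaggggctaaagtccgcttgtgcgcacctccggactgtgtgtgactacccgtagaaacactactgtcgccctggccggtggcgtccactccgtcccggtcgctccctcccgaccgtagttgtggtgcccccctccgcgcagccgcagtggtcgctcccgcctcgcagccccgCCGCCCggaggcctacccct
The Mta1 window is 80.8% G and C and holds 39 CpG sites and 3 GC boxes. The Mta2 window has 60.4% G and C, 24 CpG sites and 2 GC boxes, and that of Hdac2 has 68.8%, 27 and 1. Over all 32851 promoter windows of that length the median was 52.4% G and C with 6 CpG sites, and 32.7% held a GC box. Searched on both strands, the CCAAT box (CCAAT), an AP-1 site (TGANTCA), a CRE (TGACGTCA) and an Esrrb core site (AAGGTCA) had no match in these 3 windows, against 33.8%, 6.75%, 1.55% and 4.08% of all windows. Windows of other members that are not shown did hold some of them. That of Mbd3 had 3 CCAAT boxes, those of Gatad2a 2 CCAAT boxes in 1 and 1 AP-1 site in another, and 1 of Chd4 had 1 CCAAT box. A match is a description of the letters only.

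All 10 genes were detected in every library. The order over the 35 libraries by median TPM, a scale that allows for transcript length, was Mbd3 (157), Chd4 (135), Hdac1 (117), Hdac2 (94.1), Mta2 (92.5), Mta1 (78.8), Gatad2a (72.8), Mta3 (62.7), Chd3 (62.4) and Mbd2 (44.7). Neighbours in that order overlapped in their ranges over the libraries. Mbd3 was the highest of the 10 in 25 libraries, Chd4 in 9 and Chd3 in 1. Mbd2 was the lowest in 16 libraries, Chd3 in 9, Mta3 in 6 and Gatad2a in 4. Summed over the 10 genes, the median was 1128 TPM without Esrrb (1042 to 1192), 988.4 without Jdp2 (897.6 to 1070), 945.2 in JEGS (910.6 to 1185), 770.1 without Glis1 (679.8 to 1044) and 767.9 without Sall4 (739.4 to 1054). These ranges overlapped at their ends, and the highest sum in the arms without Glis1 and without Sall4 is within the range of the arm without Esrrb. The lowest counts behind these levels were 50 for Mbd2, 70 for Mta3 and 90 for Chd3. For Hdac1 the estimated count was not a whole number in most libraries, so some of its reads were divided with another locus. The other 9 genes had whole counts in all 35.

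**Figure D1:**
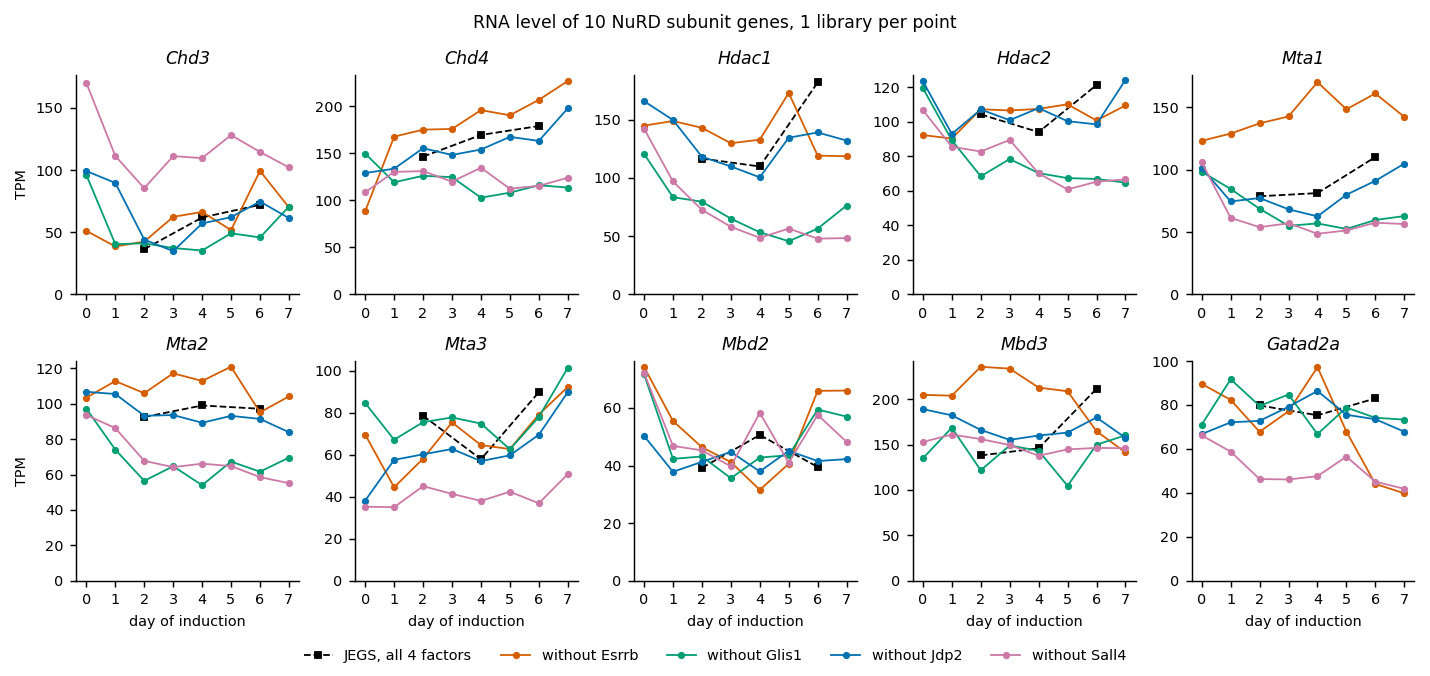
TPM (vertical axis, from 0) against day of induction for each of the 10 genes, 1 point per library, lines joining the libraries of an arm. Chd3 is highest without Sall4 on every day, from 85.4 to 170 TPM, Mta1 is highest without Esrrb, from 123 to 170 TPM, and Hdac1 has its highest value on day 0 without Glis1 and without Sall4.

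Each leave-out arm was set against the mean of the other 3, day by day, to ask how NuRD transcripts differ when 1 factor is missing. Without Esrrb, 5 of the 10 genes were higher (Mta1, Hdac1, Mta2, Chd4 and Mbd3) and 2 lower (Chd3 and Mbd2), where 20.9% of all 18135 genes tested were higher and 21.9% lower. Without Glis1, 2 were higher (Mta3 and Gatad2a) and 6 lower (Hdac1, Chd3, Mta2, Mta1, Hdac2 and Chd4), against 20.0% and 16.3% of all genes. Without Jdp2, Hdac1 and Hdac2 were higher, against 14.4%, and 0 were lower (0 also at an unadjusted p under 0.05 and by DESeq2 or limma), against 9.13%. Without Sall4, Chd3 and Mbd2 were higher and 6 were lower (Mta3, Hdac1, Mta1, Gatad2a, Mta2 and Chd4), against 22.3% and 19.5%. The median log2 fold change of the 10 was 0.20 without Esrrb, -0.23 without Glis1, 0.04 without Jdp2 and -0.22 without Sall4, and that of all genes was between -0.01 and 0.01. Here higher and lower mean a Benjamini-Hochberg adjusted p under 0.05 in the two-sided quasi-likelihood test of edgeR. The 4 comparisons share their reference libraries, so a rise in 1 arm lowers the others against their mean.

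**Figure D2:**
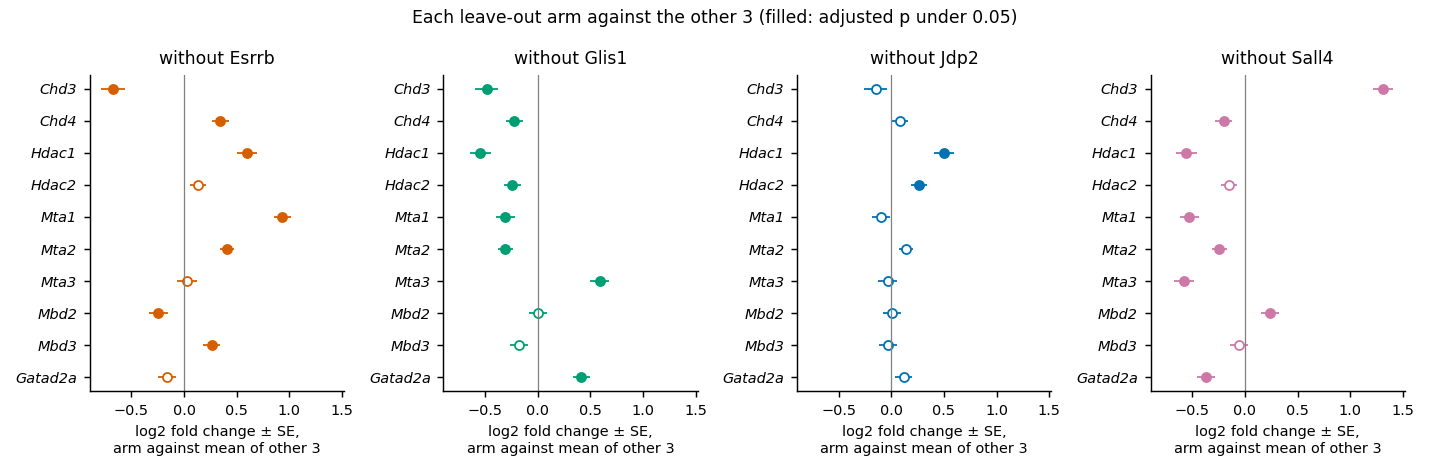
log2 fold change with its standard error (horizontal axis) for each of the 10 genes in each leave-out arm against the mean of the other 3 arms, with filled points for an adjusted p under 0.05. Chd3 without Sall4 (1.31) and Mta1 without Esrrb (0.93) stand farthest to the right.

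The remodelling ATPases Chd3 and Chd4 went in different directions without Sall4. Chd3 and Chd4 are alternative motor subunits of NuRD, and a given complex holds 1 of them. Chd3 (ENSMUSG00000018474, chr11:69343273-69369406, minus strand) was 85.4 TPM at its lowest, 111 at its median and 170 at its highest without Sall4. The corresponding values were 38.5, 57.1 and 99.3 without Esrrb, 35.3, 43.5 and 96 without Glis1, and 34.8, 61.7 and 99.2 without Jdp2. In JEGS it was 36.4, 61.9 and 72.0 TPM on days 2, 4 and 6. In CPM (counts relative to library size, here scaled for library composition) every library without Sall4 was above all 24 other leave-out libraries. The difference was 2.48-fold (log2 1.31 ± 0.10 SE, adjusted p = 1.6e-11 by edgeR), higher than the mean of the other arms on 8 of 8 days. Chd3 was lower without Esrrb (log2 -0.68 ± 0.11, adjusted p = 1.3e-05) and without Glis1 (-0.49 ± 0.11, adjusted p = 0.00067), on 8 of 8 days in both, though the ranges overlapped. The value without Esrrb was -0.28 and missed the threshold when TPM were tested by limma. In both comparisons the mean of the other arms includes the high arm without Sall4. Paired with the arm without Jdp2 by edgeR, Chd3 was -0.25 ± 0.13 without Glis1 (adjusted p = 0.13) and -0.40 ± 0.13 without Esrrb (0.028). Between the arms without Esrrb and without Glis1 it was -0.14 ± 0.13 (0.4). RSEM's effective transcript length for Chd3, which is weighted by isoform and divides the counts in TPM, had a median of 2575 bases without Esrrb, 2851 without Glis1, 2940 without Jdp2 and 3162 without Sall4.

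Chd4 (ENSMUSG00000063870, chr6:125095981-125130591, plus strand) was the more abundant of the pair in all but 2 libraries, those of days 0 and 5 without Sall4. It ranged from 88.5 to 227 TPM without Esrrb (median 183), from 103 to 150 without Glis1 (118), from 129 to 198 without Jdp2 (155) and from 109 to 135 without Sall4 (122), and was 146, 169 and 179 TPM in JEGS. It was higher without Esrrb (log2 0.34 ± 0.08, adjusted p = 0.00075), on 7 of 8 days, and day 0 was the exception. It was lower without Glis1 (-0.22 ± 0.08, adjusted p = 0.032) and without Sall4 (-0.20 ± 0.08, adjusted p = 0.049), and all these ranges overlapped. Pair by pair, both of these arms passed against the arm without Esrrb only. Against the arm without Jdp2 the adjusted p by edgeR was 0.074 without Glis1 and 0.1 without Sall4. Leaving out any 1 of the day 4 to day 7 libraries without Glis1 ended the call in that arm, at -0.22 to -0.20. The call without Sall4 was lost on leaving out any 1 of 25 libraries, with no filter on low counts and with no day term, at log2 values of -0.22 to -0.15. Chd3 made up 47.1% of the summed TPM of both genes without Sall4 (median, 39.5 to 61.0%). Its median share was 24.4 to 27.1% in the other 4 groups, and the day 0 and day 1 libraries without Jdp2, at 43.5 and 40.2%, reached into the range without Sall4. The Chd4 gene overlaps a miRNA and a small RNA gene, and Chd3 a small RNA gene, all on the same strand.

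**Figure D3:**
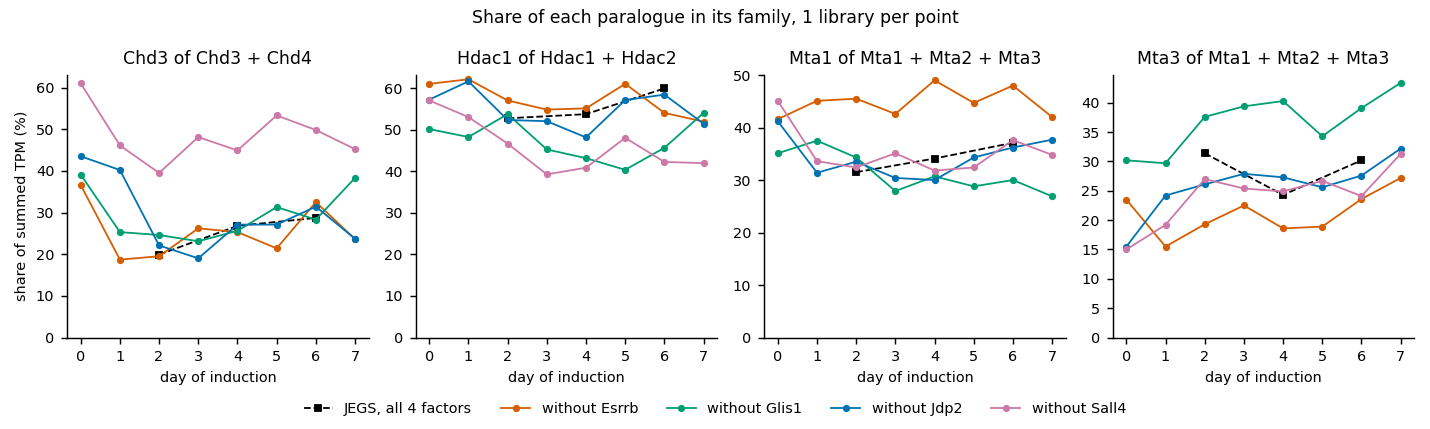
Share of summed TPM (vertical axis, percent, from 0) of 1 paralogue in its family against day of induction, 1 point per library: Chd3 among Chd3 and Chd4, Hdac1 among Hdac1 and Hdac2, Mta1 and Mta3 among the 3 Mta genes. Chd3 is highest without Sall4 on every day, Mta3 without Glis1 on every day, and Mta1 without Esrrb on every day but day 0, when the library without Sall4 stood at 45.1%.

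Against the mean of the other 3 leave-out arms, both deacetylase genes were lower without Glis1 and higher without Jdp2, and Hdac1 had the larger differences. HDAC1 and HDAC2 are class I deacetylases that also serve in the Sin3 and CoREST complexes. Hdac1 (ENSMUSG00000028800, chr4:129516104-129542713, minus strand) had a median of 138 TPM without Esrrb (119 to 173) and 133 without Jdp2 (101 to 166). Its median was 70.7 without Glis1 (45.7 to 121) and 57.3 without Sall4 (47.9 to 142), and in JEGS it was 117, 110 and 182 TPM. The highest value of each of the low arms is that of day 0, and it reached into the range of the high arms. The log2 differences from the mean of the other 3 arms were 0.60 ± 0.10 without Esrrb (adjusted p = 1.2e-05), 0.50 ± 0.10 without Jdp2 (0.00026), -0.54 ± 0.10 without Glis1 (0.0001) and -0.56 ± 0.10 without Sall4 (7.1e-05). Each held its direction on 8 of 8 days.

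Hdac2 (ENSMUSG00000019777, chr10:36974544-37001889, plus strand) had a median of 107 TPM without Esrrb (90.4 to 110), 104 without Jdp2 (93.1 to 124), 69.4 without Glis1 (64.8 to 120) and 76.5 without Sall4 (60.9 to 107). It was 104, 94.1 and 121 TPM in JEGS. By edgeR it passed without Glis1 (log2 -0.24 ± 0.08, adjusted p = 0.016) and without Jdp2 (0.26 ± 0.08, adjusted p = 0.012). It gave 0.13 ± 0.08 without Esrrb (0.18) and -0.15 ± 0.08 without Sall4 (0.13). By limma on TPM Hdac2 passed without Esrrb (0.26, adjusted p = 0.023) and without Sall4 (-0.285, adjusted p = 0.014). By edgeR with days 3 to 7 alone it passed in these arms too (0.227, adjusted p = 0.049, and -0.249, adjusted p = 0.035). The call of Hdac2 without Jdp2 was lost without the day 7 library of that arm (0.20). JEGS against the arm without Jdp2 gave 0.12 ± 0.16 for Hdac2 (adjusted p = 0.8 by edgeR), which missed the threshold. Hdac1 held a median of 56.2% of the summed TPM of both without Esrrb, 54.8% without Jdp2, 53.8% in JEGS, 47.0% without Glis1 and 44.5% without Sall4. By median, the balance of the pair thus lay on either side of equal parts in different arms. Single libraries lay on both sides without Glis1 (40.4 to 54.1%), without Sall4 (39.3 to 57.1%) and without Jdp2 (48.2 to 61.7%). All were above equal parts without Esrrb (52.0 to 62.2%) and in JEGS (52.8 to 60.0%).

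Of the 3 MTA genes, Mta1 and Mta2 had their highest medians without Esrrb. Among the leave-out arms that of Mta3 was highest without Glis1 (76.6 TPM), and JEGS was at a similar level (median 78.6). MTA proteins are the scaffold that binds and activates the deacetylases. Mta1 (ENSMUSG00000021144, chr12:113098278-113137206, plus strand) was 123 TPM at its lowest, 143 at its median and 170 at its highest without Esrrb. Elsewhere it was 52.5, 61.3 and 98.5 without Glis1, 62.6, 78.7 and 105 without Jdp2, and 48.7, 56.8 and 106 without Sall4, and it was 78.8, 81.3 and 110 TPM in JEGS. All 8 libraries without Esrrb were above the other 24 leave-out libraries in CPM as well. The difference was 1.91-fold (log2 0.93 ± 0.08, adjusted p = 6.3e-10). It was lower without Sall4 (-0.53 ± 0.09, adjusted p = 2.1e-05) and without Glis1 (-0.31 ± 0.09, adjusted p = 0.0067). Between the arms without Glis1 and without Sall4 the difference of Mta1 was 0.17 ± 0.11, which missed the threshold (adjusted p = 0.25, from -0.05 to 0.38 at 2 standard errors on either side). Between the arms without Glis1 and without Jdp2 it was -0.155 ± 0.106 (adjusted p = 0.27 by edgeR), which also missed the threshold.

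Mta2 (ENSMUSG00000071646, chr19:8941875-8952303, plus strand) had medians of 109 TPM without Esrrb (95.2 to 121), 93.2 without Jdp2 (84.0 to 107), 66.1 without Glis1 (54.0 to 97.2) and 65.5 without Sall4 (55.1 to 93.7), and was 92.5, 99.1 and 97.2 TPM in JEGS. It was higher without Esrrb (log2 0.41 ± 0.07, adjusted p = 1.2e-05) and lower without Glis1 (-0.31 ± 0.07, adjusted p = 0.00077) and without Sall4 (-0.24 ± 0.07, adjusted p = 0.0054). Day 0 was the highest library in both low arms. Without Jdp2 the difference of Mta2 was 0.14 ± 0.07 and missed the threshold by edgeR (adjusted p = 0.14). There limma on TPM called it higher (0.246, adjusted p = 0.023).

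Mta3 (ENSMUSG00000055817, chr17:83706163-83821516, plus strand) was high without Glis1 and low without Sall4. Its lowest, median and highest TPM were 62.6, 76.6 and 101 without Glis1 and 35, 39.7 and 50.7 without Sall4, which do not overlap. They were 44.5, 67.1 and 92.2 without Esrrb and 38.2, 59.9 and 89.8 without Jdp2, and JEGS had 78.6, 57.9 and 89.8. Mta3 was higher without Glis1 (log2 0.59 ± 0.09, adjusted p = 3.9e-06, 8 of 8 days) and lower without Sall4 (-0.58 ± 0.09, adjusted p = 1.3e-05, 8 of 8 days). Directly compared, the arm without Glis1 was 1.84-fold above the arm without Sall4 (adjusted p = 4.6e-07). JEGS against the arm without Glis1 gave log2 -0.21 for Mta3 (adjusted p = 0.47 by edgeR), which missed the threshold. Of the summed TPM of the 3 MTA genes, Mta1 held a median of 44.9% without Esrrb and 30.3 to 34.2% in the other groups. Mta3 held a median of 38.4% without Glis1, 20.9 to 26.7% in the other leave-out arms and 30.2% in JEGS.

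Of the methyl-CpG-binding-domain genes, Mbd3 passed in 1 arm by edgeR and the result for Mbd2 depended on the scale. MBD2 binds methylated DNA, MBD3 in mammals largely does not, and a NuRD complex holds 1 or the other. Mbd3 (ENSMUSG00000035478, chr10:80392539-80399550, minus strand) had medians of 207 TPM without Esrrb (141 to 236), 165 without Jdp2 (155 to 189), 148 without Sall4 (138 to 161) and 146 without Glis1 (105 to 168), and 138, 146 and 211 TPM in JEGS. It was higher without Esrrb (log2 0.26 ± 0.08, adjusted p = 0.013), on 6 of 8 days, and passed in no other arm by edgeR with all libraries. Without Glis1 limma on TPM called Mbd3 lower (-0.29, adjusted p = 0.0081), as did edgeR without the day 7 library of the arm without Esrrb (-0.21, adjusted p = 0.043) or of that without Glis1 (-0.23, adjusted p = 0.044). The value of Mbd3 without Esrrb was 0.17 with days 3 to 7 alone and missed the threshold. Mbd3 was 73.8 to 81.1% of the summed TPM of the pair by group median.

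Mbd2 (ENSMUSG00000024513) had medians of 50.9 TPM without Esrrb (31.5 to 74.2), 47.5 without Sall4 (39.7 to 72.1), 43.4 without Glis1 (35.6 to 71.7) and 41.9 without Jdp2 (37.8 to 50.3), and was 39.2, 50.6 and 39.5 TPM in JEGS. In counts it was lower without Esrrb (log2 -0.25 ± 0.09, adjusted p = 0.026) and higher without Sall4 (0.24 ± 0.09, adjusted p = 0.027). In TPM tested by limma, the first turned to 0.11 and the second fell to 0.09, and neither passed. The call of Mbd2 without Esrrb was also lost without the day 2, 3 or 4 library of that arm (-0.20 to -0.18), and that without Sall4 without its day 1, 2, 4 or 5 library (0.18 to 0.23). DESeq2 gave -0.20 without Esrrb, which missed the threshold (adjusted p = 0.061). The effective length of Mbd2 had a median of 1230 bases without Esrrb, 1347 without Glis1, 1441 without Sall4 and 1745 without Jdp2, so the same counts give more TPM in the arm without Esrrb. Reads were not assigned to isoforms here.

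Gatad2a, the bridge between the MBD and CHD proteins, was lowest without Sall4. Gatad2a (ENSMUSG00000036180, chr8:69907076-69996384, minus strand) had medians of 46.9 TPM without Sall4 (41.8 to 66.2), 72.5 without Esrrb (39.8 to 97.2), 73.1 without Jdp2 (66.8 to 86.4) and 76.5 without Glis1 (66.7 to 91.7), and was 79.8, 75.3 and 83.0 TPM in JEGS. It was lower without Sall4 (log2 -0.37 ± 0.09, adjusted p = 0.0011, 8 of 8 days) and higher without Glis1 (0.41 ± 0.08, adjusted p = 0.00021, 7 of 8 days). JEGS against the arm without Glis1 gave -0.05 (adjusted p = 0.86 by edgeR), which missed the threshold. The ranges of the arms without Glis1 and without Sall4 did not overlap in TPM or CPM, and these arms differed 1.5-fold (adjusted p = 6.3e-05). In the arm without Esrrb the 2 lowest values, 44.0 and 39.8 TPM, are those of days 6 and 7.

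Pairs of leave-out arms were compared in the same fit to place the arms in order. Of the 10 genes, 8 differed between the arms without Esrrb and without Glis1, against 43.2% of all genes, and 7 between those without Esrrb and without Sall4, against 47.0%. Between the arms without Jdp2 and without Sall4, 7 differed, against 35.2%. Between those without Glis1 and without Jdp2, 4 differed (Hdac1, Mta3, Hdac2 and Mta2), against 35.2%. The arms without Glis1 and without Sall4 differed in 3 genes, Chd3 (log2 -1.35 ± 0.13), Mta3 (0.88 ± 0.11) and Gatad2a (0.59 ± 0.10), against 32.1%. The arms without Esrrb and without Jdp2 differed in 2, Mta1 (0.77 ± 0.11) and Chd3 (-0.40 ± 0.13), against 22.0%, and the latter was lost by DESeq2 and limma, with no day term, with days 3 to 7, without day 0 and on leaving out any 1 of 11 libraries (-0.40 to -0.10). Between the arms without Jdp2 and without Sall4 the call of Mta1 was lost without the day 6 or day 7 library of either arm, and that of Hdac2 without the day 7 library without Jdp2. For Chd3 the arm without Sall4 was separate from each of the others in CPM, by 2.81-fold from the arm without Esrrb, 2.54-fold from that without Glis1 and 2.14-fold from that without Jdp2.

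JEGS was compared with the leave-out arms on days 2, 4 and 6, with 3 libraries in each group. Against the mean of the 4 arms, Hdac1 was higher (log2 0.66 ± 0.15, adjusted p = 0.023) and no gene of the 10 was lower (1, Chd3, at an unadjusted p under 0.05, and 0 by DESeq2 or limma), where 3.21% of 16603 genes were higher and 0.849% lower. The call was lost on leaving out the JEGS library of day 4 or day 6 or the day 4 library without Jdp2, and in TPM tested by limma. Against the arm without Sall4, 6 of the 10 passed, against 23.8% of all genes. Chd3 was lower (-1.34 ± 0.21, adjusted p = 0.00039), and Hdac1 (1.18 ± 0.20, adjusted p = 0.00065), Mta3 (0.66 ± 0.19), Gatad2a (0.62 ± 0.17), Mta1 (0.60 ± 0.16) and Mta2 (0.46 ± 0.15) were higher, and for each of these 6 the ranges did not overlap. That count was 2 without the JEGS library of day 6 or that of the arm without Sall4, and 3 without the day 4 library of the latter. The call of Mta2 was lost on leaving out any 1 of 11 libraries (0.31 to 0.52), and that of Mta3 also without the JEGS library of day 2.

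Against the arm without Glis1, Hdac1 (1.05 ± 0.20, adjusted p = 0.0018), Mta2 (0.57 ± 0.15) and Hdac2 (0.48 ± 0.16) were higher in JEGS, against 19.9% of all genes called. Leaving out the day 6 library of JEGS or the day 4 library without Glis1 left 1, and the call of Hdac2 was lost on leaving out any 1 of 9 libraries (0.34 to 0.51). Against the arm without Esrrb, Mta1 was lower (-0.61 ± 0.16, adjusted p = 0.033), against 6.63%, and that call was lost without the day 2 or day 4 library of JEGS or the day 4 or day 6 library of the other arm. None passed against the arm without Jdp2, where 2.82% of all genes were called. The largest estimate there was 0.29 ± 0.16 for Mta1 (-0.03 to 0.62 at 2 standard errors on either side), and edgeR gave 0 of the 10 at an unadjusted p under 0.05, as DESeq2 and limma gave 0 that passed.

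**Figure D4:**
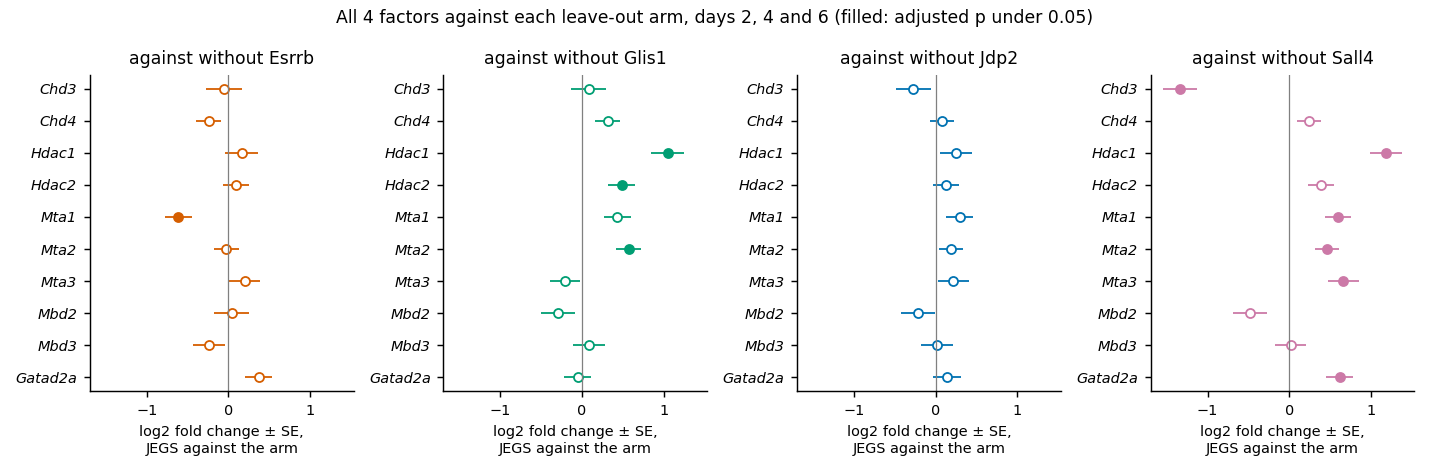
log2 fold change with its standard error (horizontal axis) of JEGS against each leave-out arm on days 2, 4 and 6 for the 10 genes, with filled points for an adjusted p under 0.05. Chd3 (-1.34) and Hdac1 (1.18) stand apart against the arm without Sall4, and no point is filled against the arm without Jdp2.

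Over days 0 to 7 in induction medium Hdac1, Hdac2, Mta2 and Gatad2a declined on average and Mta3 rose, and of these slopes only that of Gatad2a also passed with days 3 to 7. Between day 0 and day 1 of the leave-out arms, Chd3 (log2 -0.56 ± 0.18, adjusted p = 0.037) and Mbd2 (-0.52 ± 0.15, adjusted p = 0.019) were lower in 4 of 4 arms, against 6.32% of all genes. By edgeR 0 were higher, against 7.59%, and 0 at an unadjusted p under 0.05 or by DESeq2 or limma. In TPM Mbd2 went from 50.3 to 74.2 on day 0 to 37.8 to 55.5 on day 1. Leaving out the day 0 or the day 1 library without Glis1 ended both calls. That of Chd3 was also lost without the day 4 or 5 library of that arm, day 1 without Esrrb, day 0 or 2 without Jdp2, or day 0 or 1 without Sall4 (9 libraries in all, -0.60 to -0.44). That of Mbd2 was also lost without day 0 of the arm without Esrrb or day 1 of that without Jdp2 (4 in all, -0.49 to -0.44). With only the libraries of these 2 days neither passed. Averaged over the 4 arms, the slope per day was negative for Hdac1 (log2 -0.10 ± 0.02, adjusted p = 0.00015), Mta2 (-0.05 ± 0.01, adjusted p = 0.0017), Gatad2a (-0.05 ± 0.01, adjusted p = 0.017) and Hdac2 (-0.04 ± 0.01, adjusted p = 0.018), and positive for Mta3 (0.07 ± 0.02, adjusted p = 0.0022). Of all genes 15.8% had a negative and 15.4% a positive slope. With days 3 to 7 alone 2 of the 10 passed, Gatad2a (-0.11 per day) and Chd3, which then had a positive slope (0.10, adjusted p = 0.032). Hdac1, with the steepest decline of the 10 over all days, then had a slope of -0.004 (adjusted p = 1), and Mta3 one of 0.08 (adjusted p = 0.057). Without day 0 the slope of Hdac1 was -0.06 (adjusted p = 0.03) and that of Chd3 0.05 (adjusted p = 0.042), and those of Mta2 and Hdac2 missed the threshold. The slope of Hdac2 was also lost without the day 0 library of the arm without Jdp2 (-0.03). That of Gatad2a was lost when day entered as log2(day + 1) (-0.087). From day 0 to day 7 Gatad2a went from 167.0 to 92.9 CPM without Esrrb and from 161.9 to 110.7 without Sall4. It went from 163.2 to 152.2 CPM without Jdp2 and from 162.7 to 185.5 without Glis1.

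A slope of an arm's own, against the mean of the other 3, was found for Chd4 without Esrrb (log2 0.10 ± 0.03 per day, adjusted p = 0.031), against 6.64% of all genes called. Chd4 there was 88.5 TPM on day 0, 168 on day 1 and 227 on day 7. The call was lost with days 3 to 7 alone, without the day 0, day 6 or day 7 library of that arm, and with no filter on low counts. No gene of the 10 had a slope of its own without Glis1, without Jdp2 or without Sall4 in edgeR, against 3.55%, 0.127% and 1.84% of all genes called. At an unadjusted p under 0.05 the counts were 1, 0 and 3, and 0 passed by DESeq2, while limma on TPM called 1 without Glis1.

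Further NuRD subunits were read beside the 10: Rbbp4 and Rbbp7, histone chaperones that NuRD shares with Sin3 and Polycomb complexes, Cdk2ap1, a small NuRD subunit, and Gatad2b and Chd5, paralogues of members. Their median TPM over the 35 libraries was 198 for Rbbp7, 194 for Cdk2ap1, 57.6 for Rbbp4, 22.3 for Gatad2b and 0.19 for Chd5. Cdk2ap1 was higher without Esrrb (log2 0.87 ± 0.12) and without Jdp2 (0.38 ± 0.12) and lower without Glis1 (-0.76 ± 0.13) and without Sall4 (-0.48 ± 0.12). Rbbp4 went the same way in all 4 arms (0.59 ± 0.08, 0.37 ± 0.08, -0.50 ± 0.08 and -0.46 ± 0.08). Rbbp7 was higher without Jdp2 (0.42 ± 0.09) and lower without Glis1 and without Sall4, and Gatad2b was higher without Esrrb (0.31 ± 0.10). Thus 3 of the 5 passed in each arm, all upwards without Esrrb and without Jdp2 and all downwards without Glis1 and without Sall4. Of all genes, 20.9% were higher without Esrrb and 14.4% without Jdp2, and 16.3% were lower without Glis1 and 19.5% without Sall4. Rbbp4 and Cdk2ap1 had estimated counts that were not whole in some libraries, so some of their reads were divided with other loci. Chd5, a mainly neuronal paralogue, was listed at up to 10.0 TPM in 1 library without Esrrb, which rests on an estimated count of 1 and an effective length of 82.13 bases.

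Genes of proteins that recruit NuRD or associate with it were read next. Of 15 such genes tested, 9 were higher and 2 lower without Esrrb, among them Sall1 (log2 3.76 ± 0.28), Sall3 (1.34 ± 0.51) and Bcl11b (1.08 ± 0.24). Without Sall4, 2 were higher and 8 lower, with Zfpm2 at 1.42 ± 0.23, Bcl11b at -1.41 ± 0.27 and Bcl11a at -1.19 ± 0.23. Without Glis1, 3 were higher and 5 lower, with Ikzf1 at -3.46 ± 1.29, Sall1 at -3.21 ± 0.42 and Zfpm1, a GATA cofactor, at -1.90 ± 0.17. Without Jdp2, 1 was higher and 2 lower. Of all genes, 20.9% were higher and 21.9% lower without Esrrb, and 22.3% and 19.5% without Sall4. These shares were 20.0% and 16.3% without Glis1, and 14.4% and 9.13% without Jdp2. The medians of the list were 0.51, -0.42, -0.13 and 0.06 in that order of arms.

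Other deacetylase complexes were read in the same way, beside the shares of all genes. Those were 20.9% higher and 21.9% lower without Esrrb, and 20.0% and 16.3% without Glis1. They were 14.4% and 9.13% without Jdp2, and 22.3% and 19.5% without Sall4. Of 14 Sin3 genes, 7 were higher and 2 lower without Esrrb, 1 and 4 without Glis1, 4 and 1 without Jdp2, and 2 and 5 without Sall4. Sinhcaf, a Sin3 subunit, was at 0.99 ± 0.17 without Esrrb and -1.18 ± 0.19 without Sall4, and Sin3b, a scaffold, at -1.29 ± 0.19 without Glis1 and 1.03 ± 0.17 without Jdp2. Of 14 tested genes of CoREST, MiDAC and MIER complexes, 7 were higher and 2 lower without Esrrb, 1 and 5 without Glis1, 1 and 0 without Jdp2, and 4 and 3 without Sall4. Rcor2, a CoREST scaffold, was at 1.90 ± 0.17 without Esrrb and -2.65 ± 0.23 without Sall4. Of 13 paralogues outside NuRD, 6 were higher and 1 lower without Esrrb, 2 and 2 without Glis1, none without Jdp2, and 0 and 5 without Sall4, where Mbd4, a DNA glycosylase with a methyl-CpG-binding domain, was at -1.22 ± 0.32. For those paralogues without Jdp2, edgeR gave 1 at an unadjusted p under 0.05, and the results of the other tools were not read for this list.

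Cell cycle genes had their medians in the same order of groups as Hdac1. The 26 listed genes summed to a median of 1960 TPM without Esrrb (1520 to 2600), 1600 without Jdp2 (1140 to 2190), 1450 in JEGS (1290 to 2600), 710 without Glis1 (499 to 1440) and 342 without Sall4 (273 to 1600). Of them 24 were higher without Esrrb, 23 were higher without Jdp2, 11 were lower and 1 higher without Glis1, and 25 were lower without Sall4. The shares of all genes were 20.9% higher without Esrrb, 14.4% higher without Jdp2 and 19.5% lower without Sall4. Without Glis1 they were 16.3% lower and 20.0% higher. Within single arms, over the 8 days, Pearson's r between Hdac1 and that sum on a log scale was 0.98 without Sall4, 0.92 without Glis1, 0.75 without Jdp2 and 0.61 without Esrrb (Spearman's rho 0.95, 0.98, 0.76 and 0.48). For Mta2 Pearson's r was 0.88, 0.75, 0.25 and 0.44 in the same order of arms (rho 0.88, 0.57, 0.1 and 0.38). For Chd3 it was 0.73, 0.51, 0.75 and -0.14 (rho 0.43, 0.24, 0.74 and 0.0). These libraries share the days and are given as a description. Chd3 was at its highest in the arm with the lowest sum. The part of proliferation in the differences of Hdac1, Mta1, Mta2 and Hdac2 was not tested.

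**Figure D5:**
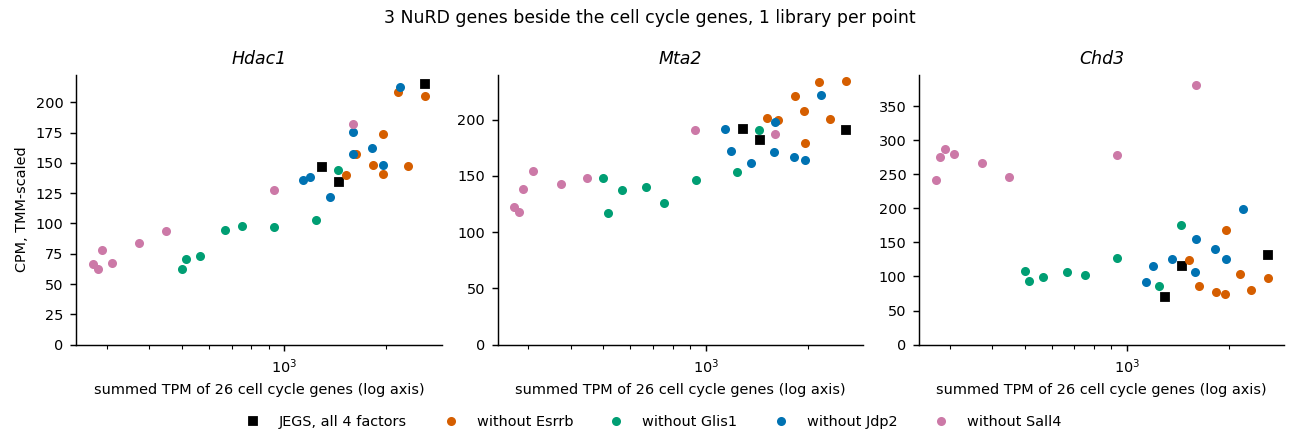
CPM of Hdac1, Mta2 and Chd3 (vertical axis, from 0) against the summed TPM of 26 cell cycle genes (horizontal log axis), 1 point per library. Hdac1 lies along 1 band in all groups, while the 8 libraries without Sall4 lie above all the others for Chd3.

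The genes whose pattern over the 32 leave-out libraries was most like that of each member were sought among 11060 genes, by Pearson's r of log2(CPM + 1). For Hdac1 they were Pimreg (0.959), Tpx2 (0.952), a spindle assembly factor, and Cip2a (0.951). For Mta2 they were the NuRD subunit Cdk2ap1 (0.913), H2afx (0.904) and Ptbp1 (0.900), and for Mta1 Cep89 (0.913), Tcf3 (0.905) and Lrwd1 (0.898). Chd3 was most like Nars (0.883), Grb14 (0.851) and Tcaf2 (0.844), Chd4 like Gpatch8 (0.883), Gon4l (0.877) and Fbxl19 (0.874), and Hdac2 like Igf2bp1 (0.866), Asf1b (0.834) and Xpo1 (0.832). Gatad2a was most like the G1 cyclin Ccne1 (0.865), Fam3c (0.857) and Mat2a (0.820), and Mta3 like Igfbp2 (0.821), Drp2 (0.810) and Ablim1 (0.809). Mbd2 was most like Tceal9 (0.850), Arhgap20 (0.819) and Adipor1 (0.818), and Mbd3, with the weakest likeness, like Nudc (0.793), Comp (0.770) and Fpgs (0.757). Among the members themselves, Mta2 and Hdac1 were the most alike (0.887), followed by Hdac1 and Hdac2 (0.800), and Chd3 and Gatad2a the most opposed (-0.558). The libraries share arms and days, and these values describe that sharing.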

How the data were processed

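RNA-seq of 35 libraries was read from the authors' RSEM gene tables. Per the submitters' processing notes, bcl2fastq, Bowtie2 and RSEM were used with the mm10 build; versions and annotation release are not given in the sources used here. The deposited expected counts are RSEM's estimated counts per gene, not normalized. The deposited TPM, and the FPKM used only as an alternative for shares, are scaled by the authors for depth and transcript length. The deposited lengths were read for the members' effective length.

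Groups and days were taken from sample names, since a treatment label that gives all 4 factors and 72 hours to every sample contradicts them. The number in the female strain's name differs from label to label.

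Expected counts were rounded and tested with edgeR 4.0.16 (TMM, a minimum of 1 CPM in 3 libraries for a gene to be tested, quasi-likelihood F test, Benjamini-Hochberg adjustment within each comparison, threshold 0.05). Leave-out arms, their pairs and day 1 against day 0 were contrasts of 1 model with arm and day as factors (32 libraries), and the slopes of another with a linear day term per arm. The JEGS comparisons used days 2, 4 and 6 (15 libraries). That makes 21 comparisons. The script was tested on simulated counts. Alternatives were DESeq2 1.42.0, limma 3.58.1 on log2(TPM + 1), other scaling, filter, days and libraries, and, chosen after seeing the data, leaving out day 0. Shares of paralogues and correlations carry no test. Coordinates are those of GENCODE M21 on GRCm38, the assembly mm10 is taken from. Depth limits the lower genes most: 1 count was 0.79 CPM in the shallowest library.

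All 10 genes are named. From each further list (other subunits, recruiting and associated proteins, Sin3, CoREST with MiDAC and MIER, paralogues outside NuRD, cell cycle) up to 3 passing genes are named by size of change, and for each member the 3 genes of highest Pearson correlation with a mean of at least 5 CPM, predicted genes left out. The 10 genes and all lists were chosen with earlier results of these data known.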

Additional observations from a re-analysis of the deposited data

Results flagged for a closer look

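Within the 8 libraries of an arm, 4 of the 40 combinations of gene and arm had a library whose TPM lay far from the rest by Dixon's test. Its chance rate of about 1 in 20 is that of independent replicates of 1 condition. These libraries are successive days and are shared by the genes, so that rate does not apply and the flags are a description. All 4 were libraries of day 0. Chd4 without Esrrb was lowest there at 88.5 TPM, against 168 TPM on day 1. Mta1 without Sall4 was highest at 106 TPM, against 61.4 on day 1. Mta2 and Hdac2 without Glis1 were highest at 97.2 and 120 TPM, against 74.1 and 89.4 on day 1. In the arm without Glis1 the cell cycle genes summed to 1440 TPM on day 0 and 1240 on day 1, and without Sall4 to 1600 and 933, and their part in these values was not tested.

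The slope of Chd4 over the days differed between arms: without Esrrb it exceeded the mean of the other 3 by log2 0.10 per day (edgeR interaction term, adjusted p = 0.031). Its 88.5 TPM of day 0 enters that slope, and without that library the call was lost.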

How the results depend on the processing

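Of 75 results of single members that passed, 41 passed under every alternative, and of their 2779 alternative values 2617 kept direction and call, 160 lost the call and the rest changed sign. Over all results of members a sign changed in 4 values: Mbd2 without Esrrb became 0.11 and Mbd2 between the arms without Esrrb and without Sall4 0.016 in TPM by limma, and the common slope of Chd3 became 0.10 with days 3 to 7 and 0.053 without day 0, a setting chosen after seeing the data. The cause was not tested. With no filter on low counts more genes were tested, and the number of members passing was 1 without Jdp2, 5 without Sall4, 4 between the arms without Jdp2 and without Sall4, 1 for day 1 against day 0 and 0 for the slope without Esrrb. Between the arms without Esrrb and without Jdp2 it was 4 by DESeq2 and 1 by limma, with no day term or with days 3 to 7. By limma it was 1 for day 1 against day 0, 0 for JEGS against the mean and 1 for the slope without Glis1. It was 0 for days 0 and 1 alone, 0 for JEGS against the arm without Esrrb with no day term, 2 for the common slope and 0 for the slope without Esrrb with days 3 to 7, 2 for the latter without day 0, and 1 for the slope without Sall4 on log2(day + 1).

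Leaving out single libraries, the number of members passing was 6 to 7 without Esrrb, 7 to 9 without Glis1, 1 to 2 without Jdp2 and 6 to 8 without Sall4. Between pairs of arms it was 8 to 8 for Esrrb and Glis1, 1 to 3 for Esrrb and Jdp2, 7 to 8 for Esrrb and Sall4, 4 to 6 for Glis1 and Jdp2, 3 to 3 for Glis1 and Sall4 and 5 to 7 for Jdp2 and Sall4. It was 0 to 2 for day 1 against day 0, 0 to 1 for JEGS against the mean, 0 to 1 against the arm without Esrrb, 1 to 3 without Glis1, 0 to 0 without Jdp2 and 2 to 6 without Sall4. For the common slope it was 4 to 6, for that without Esrrb 0 to 2, and 0 to 0 for the other arms.

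Counts over all genes moved by more than 1.5 times in JEGS comparisons and slopes only: 110 to 1565 for JEGS against the mean (674 as reported), 470 to 1773 against the arm without Esrrb (1101), 1815 to 1941 without Glis1 (3304), 103 to 1122 without Jdp2 (468), 2160 to 2587 without Sall4 (3954), 2111 for the common slope (5658), and for slopes of single arms 611 (1204), 368 to 987 (644), 1 to 492 (23) and 108 to 635 (334). Counts in place of TPM moved 16 of the group means of paralogue shares by more than the spread between libraries. No paired analysis was possible because the labels give no replicate numbers that link samples of different arms, and the day they share is already a term of the fits.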
